A study of Mus musculus with 4 samples.

Results

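Potassium channel genes were examined in adult male mouse ureter, a tube of muscle with an epithelial lining that moves urine out of the kidney. The members were all genes with a probe set of a single annotated symbol made of Kcn, the letters of a family and a number, plus Abcc8 and Abcc9, the sulfonylurea receptors that form part of ATP-sensitive potassium channels. They came to 82 genes with 163 probe sets, of 18193 named genes on the array. The 4 samples form 1 group. They were adult ureters at Theiler stage 28 from FVB/N strain crosses to a reporter line (SMGA/EGFP) in which EGFP marks tissue that expresses smooth muscle gamma actin, encoded by Actg2. The tissue between kidney and bladder was cut out by its fluorescence, was not sorted into cell types, and was not pooled, and the labels do not say that each sample came from a separate animal. Every sample carried the reporter, no other genotype or treatment was measured, and no comparison between groups was therefore possible. The samples are called replicates 1 to 4, an order without meaning.

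Potassium channels let potassium ions leave the cell and so hold the membrane potential negative. In smooth muscle this keeps voltage-gated calcium channels closed and limits contraction, while in epithelia it supplies the driving force for the transport of other ions. Most channels are built of pore-forming subunits, which differ in what opens them, and of accessory subunits, which change gating or carry the channel to the membrane. The question was which of these genes the ureter samples expressed and how evenly they did so.

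A level is log2(intensity + 16) of the gene's probe set with the highest mean, given as mean ± SD over 4 samples. Background was set on every array from 86 probe sets for odorant, pheromone and taste receptors, whose 95th percentile gave thresholds of 7.25, 6.99, 7.57 and 7.36 in replicates 1 to 4. A gene was above background where limma's moderated one-sided test of the mean distance from these thresholds gave a Benjamini-Hochberg adjusted p under 0.05 over all 45037 probe sets. Levels of different genes come from different probes, so medians of levels and the order of genes by distance are descriptions of signal and not of transcript amount. The 3' over 5' control signals differed between the arrays, at 18.8 to 36.9 for Gapdh and 4.43 to 19.8 for Actb. Both were lowest in replicate 4 and highest in replicate 2. After 2 rounds of amplification, the part of RNA quality in these ratios was not tested. All 8 smooth muscle markers were above background, and so were 5 of 7 markers of urothelium, the lining of the ureter. Markers of other organs were high in some samples: all 12 skeletal muscle genes lay over the threshold in replicate 3, all 10 liver genes in replicates 1 and 3, and all 7 seminal vesicle and prostate genes in replicates 1 and 2. None of these intensities was 0 in any sample.

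Most potassium channel genes were not above background in the ureter. Of 82 genes 14 passed (17.1%), where 57.9% of all named genes did. The same 14 genes lay over the threshold in all 4 samples, against 58.4% of all named genes, and 38 lay over it in none. The median level of the 82 genes was 6.58, and that of all named genes was 9.18. The 68 genes that did not pass include some with a signal in part of the samples, and a probe set far from the 3' end could miss a transcript after 2 rounds of amplification. When the threshold was instead placed 3 median absolute deviations over the median of the receptor probe sets, 5 of the 82 genes passed, namely Kcnk1, Kcnk5, Kcnk6, Kcnn4 and Kcnq1, beside 39.9% of all named genes. With the 99th percentile of those probe sets 11 passed, beside 53.9%, and Kcnj15, Kcnk7 and Kcnma1 did not. Without a test, 26 genes lay over the threshold on at least 3 arrays, beside 64.3% of all named genes.

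**Figure D1:**
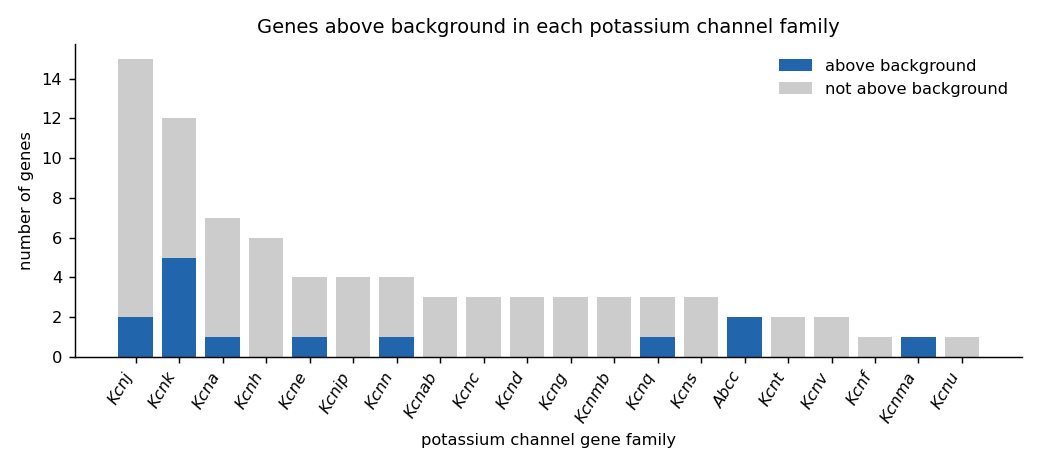
Number of genes in each potassium channel family (vertical axis), split into those above background (blue) and not above background (grey) over 4 ureter samples. Two-pore domain genes (Kcnk) hold 5 of the 14 genes above background.

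The share above background differed in size between the kinds of channel, which is given as a description. Of 12 two-pore domain genes 5 passed, of 15 inward rectifier genes 2, of 8 genes for calcium- or sodium-activated channels 2, of 31 voltage-gated pore genes 2, and of 16 accessory subunit genes 3. The share of all named genes was 57.9%. At an unadjusted p under 0.05, 15 of the 82 genes passed in limma's test, the additional one being Kcnd3. None of the genes of the families Kcnab, Kcnc, Kcnd, Kcnf, Kcng, Kcnh, Kcnip, Kcnmb, Kcns, Kcnt, Kcnu and Kcnv passed. Beside them, 1 of 11 sodium channel genes, 1 of 24 calcium channel genes, 5 of 19 transient receptor potential channel genes and 13 of 23 chloride channel genes were above background. The chloride channel share (56.5%) was near the 57.9% of all named genes.

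**Figure D2:**
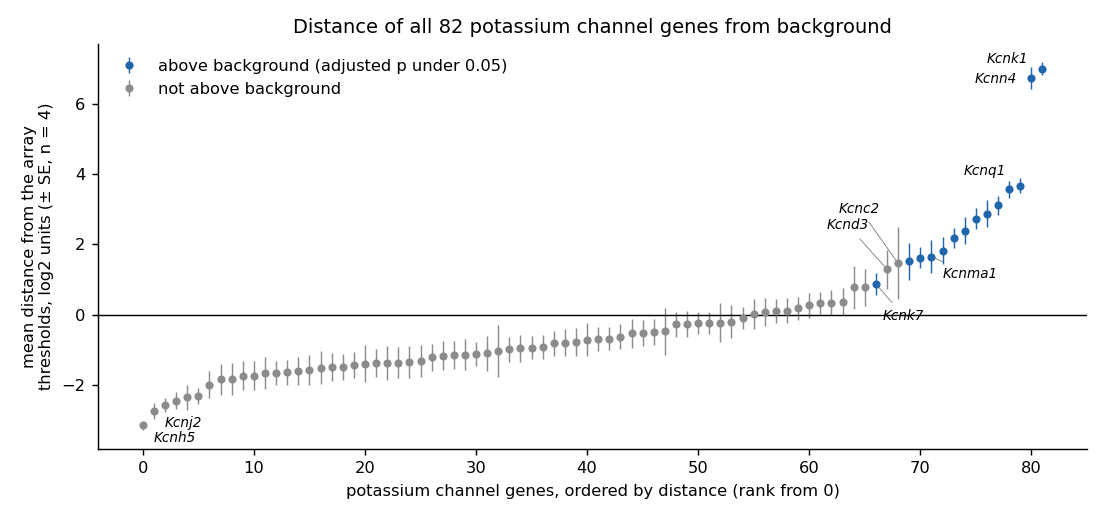
Mean distance of each of the 82 potassium channel genes from the array thresholds (vertical axis, log2 units, bars are the standard error, n = 4), in order of distance. Blue points are the 14 genes above background, and the horizontal line is the threshold. Kcnk1 and Kcnn4 lie 7.00 and 6.74 above it, while Kcnc2 and Kcnd3 lie above the line with wide bars and did not pass.

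Two-pore domain channels carry the background potassium current that is open at rest. Kcnk1, which encodes TWIK1, had levels of 14.26, 14.08, 14.76 and 14.04 in replicates 1 to 4, a mean of 14.29 ± 0.33 that lay 7.00 log2 units over background (SE 0.18, adjusted p = 1.41e-08). The 4 samples lay within 0.73 log2 units of each other. The second probe set of Kcnk1 was also above background at 10.96 ± 0.54. Kcnk6, which encodes TWIK2, had 11.40, 10.37, 10.94 and 10.73, lying 3.57 over background (SE 0.24, adjusted p = 1.83e-06). Kcnk5, which encodes the alkaline-activated TASK2 of epithelia, had 10.93, 10.35, 10.41 and 9.90, lying 3.11 over background (SE 0.27, adjusted p = 8.59e-06). In both genes the samples lay within 1.03 log2 units of each other. The second probe set of Kcnk5 was not above background, at 5.80 ± 0.91.

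The stretch-activated channel TREK1 is encoded by Kcnk2, and it has been described in visceral smooth muscle. It had levels of 9.60, 9.59, 9.89 and 8.76 and was above background by 2.17 (SE 0.29, adjusted p = 0.000138), with the lowest level in replicate 4. Kcnk7, a relative of TWIK1 with no known current of its own, had 7.73, 7.83, 8.17 and 8.92, 0.87 over background (SE 0.31, adjusted p = 0.0302). It did not pass without replicate 2 (adjusted p = 0.0679) or without replicate 4 (0.142), and its adjusted p ranged from 0.0264 to 1 over 10 alternatives. Kcnk3, which encodes the acid-sensitive TASK1, was not above background, with 6.84, 8.43, 8.05 and 7.30 (adjusted p = 0.396). The 2 samples of Kcnk3 over their array thresholds were replicates 2 and 3. The other 6 two-pore domain genes had mean levels between 4.93 and 7.02, and none passed.

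Calcium-activated channels open when calcium rises in the cell. Kcnn4, which encodes the intermediate-conductance channel of epithelia and blood cells, had levels of 13.09, 13.89, 15.47 and 13.68, a mean of 14.03 ± 1.01 that lay 6.74 over background (SE 0.32, adjusted p = 2.41e-07). Replicate 3 was highest, 1.91 over the mean of the other samples, and the second probe set of the gene ran the same way with 9.48, 9.96, 11.80 and 10.45. Replicate 3 also had the highest summed intensity of the 7 urothelium markers, 140493 against 71720 to 110526 in the others, a rank that rests on Upk3a, since without it the sums were 109813 in replicate 3 and 110459 in replicate 2. It had the highest sum of the 12 skeletal muscle markers, 246080 against 1219 to 1353. The part of these cell types in the Kcnn4 level was not tested. The small-conductance channel genes Kcnn2 and Kcnn3 were not above background, with levels from 5.22 to 5.90 and from 4.58 to 5.35. Kcnn1, of the same group, had 6.97, 4.39, 6.64 and 6.61, under the threshold in each sample. In bulk tissue, fewer cells of a type and less RNA per cell cannot be told apart.

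The large-conductance BK channel, a brake on smooth muscle contraction, has its pore encoded by Kcnma1. Kcnma1 had levels of 7.67, 9.40, 10.59 and 8.09, a mean of 8.94 ± 1.32 that lay 1.65 over background (SE 0.47, adjusted p = 0.0108). Replicates 3 and 2 were high and replicates 1 and 4 lay just over their array thresholds. Without replicate 2 the gene did not pass (adjusted p = 0.0571), and its adjusted p ranged from 0.00563 to 1 over 11 alternatives. One of its 5 probe sets was above background, and in all 5 replicate 3 was highest.

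BK channels take up accessory subunits that set their calcium sensitivity. Kcnmb1, the beta subunit typical of smooth muscle, was not above background, with 7.01, 7.13, 5.43 and 5.19 and only replicate 2 over its threshold. Kcnmb2 had a mean level of 6.60 ± 0.16 and did not pass. Kcnmb4, the beta subunit known best from neurons, reached 8.14 in replicate 3 against 5.05 to 5.22 elsewhere, and did not pass. Lrrc26, a gamma subunit that lets BK channels open at rest in epithelial and gland cells, is no member by its symbol and was above background at 13.14, 12.83, 12.66 and 12.80 (12.86 ± 0.20, adjusted p = 8.11e-08). The other gamma subunit genes measured, Lrrc52 and Lrrc38, had mean levels of 6.03 and 5.48 and did not pass. Lrrc38 reached 8.17 in replicate 3, over the threshold of that array, against 4.42 to 4.85 elsewhere.

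The promoters of Kcnma1, Kcnmb1 and Kcnmb4 are shown because these subunits of 1 channel differ widely in CG dinucleotides, the sites of DNA methylation, and the pore gene was above background while these beta subunit genes were not. They run from 250 bases before to 50 after the start site in RefSeq, build GRCm38.p6, are written 5′ to 3′ on the gene's strand, and have each CG in capitals. Kcnma1 lies at chr14:24004156-24004455 on the minus strand, Kcnmb1 at chr11:33962763-33963062 on the plus strand, and Kcnmb4 at chr10:116473474-116473773 on the minus strand.
Kcnma1: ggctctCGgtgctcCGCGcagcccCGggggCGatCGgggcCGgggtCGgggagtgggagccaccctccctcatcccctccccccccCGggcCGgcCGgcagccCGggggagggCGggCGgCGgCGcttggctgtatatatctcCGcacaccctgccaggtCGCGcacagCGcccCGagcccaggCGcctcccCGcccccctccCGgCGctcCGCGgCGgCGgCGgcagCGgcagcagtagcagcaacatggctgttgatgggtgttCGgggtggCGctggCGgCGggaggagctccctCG
Kcnmb1: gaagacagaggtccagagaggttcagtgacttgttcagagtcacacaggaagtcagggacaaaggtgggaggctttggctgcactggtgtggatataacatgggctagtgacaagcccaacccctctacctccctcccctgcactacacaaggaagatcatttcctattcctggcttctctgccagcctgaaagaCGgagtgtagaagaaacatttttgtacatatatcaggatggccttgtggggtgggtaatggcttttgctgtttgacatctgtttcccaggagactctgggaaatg
Kcnmb4: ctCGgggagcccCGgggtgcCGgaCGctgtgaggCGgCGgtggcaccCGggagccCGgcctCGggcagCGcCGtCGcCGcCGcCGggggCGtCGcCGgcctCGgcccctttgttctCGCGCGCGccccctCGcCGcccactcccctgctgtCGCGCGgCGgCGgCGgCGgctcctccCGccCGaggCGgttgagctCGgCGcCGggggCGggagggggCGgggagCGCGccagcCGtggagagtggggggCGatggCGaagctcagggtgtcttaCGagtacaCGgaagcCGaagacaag
The Kcnma1 promoter holds 36 CG, the Kcnmb4 promoter 48 and the Kcnmb1 promoter 1. A CG reads the same on both strands. Of 32841 RefSeq promoters of this length 26.5% hold 20 or more CG, 14.1% hold at most 1, and the median is 7. A count of CG is a description of these windows and not a measure of methylation. A promoter was found for 62 of the 82 members (75.6%), under the 80% asked for, so a check of CG over the whole set was void.

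ATP-sensitive potassium channels close when the cell is rich in ATP, and each joins a Kcnj pore to an Abcc receptor. Kcnj8 lies next to Abcc9 in the mouse genome and Kcnj11 next to Abcc8, with 0 protein-coding genes between them in either pair. Abcc9, the receptor of vascular and visceral muscle, had levels of 9.13, 10.42, 10.24 and 10.30, lying 2.73 over background (SE 0.30, adjusted p = 4.12e-05). Replicate 1 stood apart below the others, as 1 sample did in 6 of the 82 genes by Dixon's criterion and in 6.85% of all named genes. The other Abcc9 probe sets did not share this: 1 had 8.48, 8.96, 9.34 and 8.52, and the third, not above background, was highest in replicate 1 with 8.95, 5.72, 7.76 and 8.01. Kcnj11 had 9.31, 10.98, 11.11 and 9.25, lying 2.87 over background (SE 0.39, adjusted p = 0.000174). Replicates 2 and 3 were high and close to each other, as were the other pair at a lower level.

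Abcc8, the receptor of pancreatic beta cells and neurons, had 9.13, 9.49, 8.04 and 9.76, lying 1.82 over background (SE 0.38, adjusted p = 0.00225). This was the single gene of the 14 that was lower in replicate 3 than the mean of the other samples. Its probe set may hybridise to more than 1 transcript, as may those of Abcc9, Kcnk7 and Kcnn4. Probe sets that match several transcripts of 1 gene and those that match other genes were not told apart. With probe sets of this kind left out, Abcc8 had a distance of -1.79 log2 units from background and did not pass. The second probe sets of both Abcc8 and Kcnj11 were not above background, at 5.50 ± 1.29 and 4.99 ± 0.98.

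Kcnj8, the pore partner of Abcc9 in vessels, had 8.90, 8.76, 6.31 and 8.27 and was not above background (distance 0.77, SE 0.52, adjusted p = 0.198). Its level in replicate 3 was under the array threshold while the other 3 samples were over theirs. Without replicate 3 it passed (adjusted p = 0.00368), and its adjusted p ranged from 0.00368 to 1 over 11 alternatives. Replicate 3 was also the sample with the lowest summed intensity of the 7 endothelium markers, 4075 against 16305 to 30287. The 6 fibroblast markers summed to 20205 there, against 77968 to 113735. Among 4 pericyte markers, Pdgfrb was lowest in replicate 3, at 6.31 against 8.82 to 11.04 elsewhere, while Rgs5 was highest there at 15.04. The part of these cells in the Kcnj8 level was not tested.

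**Figure D3:**
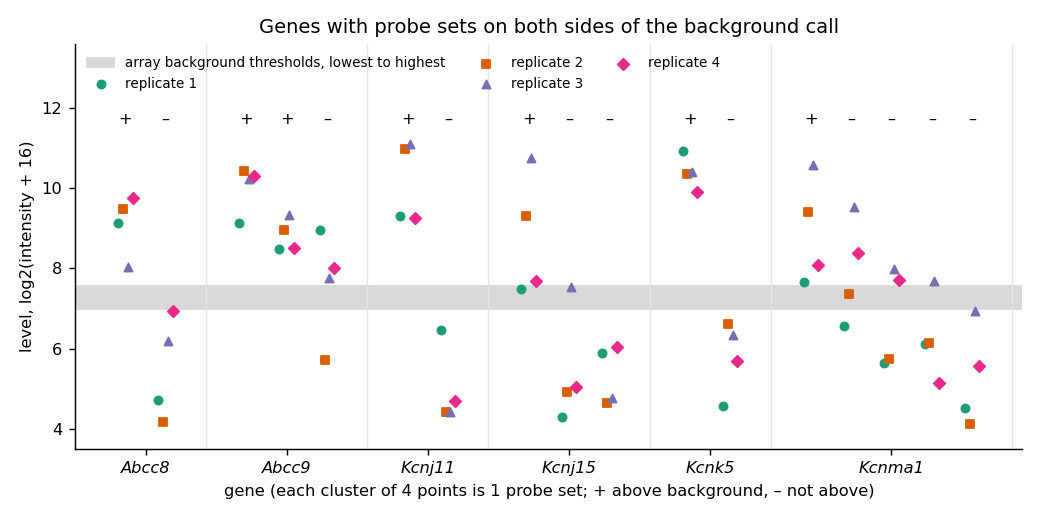
Levels of each probe set (vertical axis, log2 scale) of the 6 potassium channel genes that had probe sets on both sides of the background call. Each cluster of 4 points is 1 probe set over replicates 1 to 4, the grey band spans the lowest to the highest array threshold, and plus and minus signs mark the call. For Kcnma1 1 of 5 probe sets was above background and for Abcc9 2 of 3.

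The other inward rectifiers were mostly not above background. Kcnj15, a channel known from kidney and other epithelia, had levels of 7.48, 9.31, 10.75 and 7.68, lying 1.51 over background (SE 0.52, adjusted p = 0.0268). Replicate 3 was 2.60 over the mean of the others, and replicates 1 and 4 lay close to their thresholds. It did not pass without replicate 2 (adjusted p = 0.115) or without replicate 3 (0.0950), and its adjusted p ranged from 0.0139 to 1 over 11 alternatives. Kcnj10, a glial and renal channel, had 6.02, 8.18, 8.44 and 4.62 and did not pass. Its samples spanned 3.82 log2 units and 2 of them were over the threshold. Kcnj2, the inward rectifier of striated and arterial muscle, had 5.23, 4.27, 4.56 and 4.13, under the threshold in every sample. Of the 15 inward rectifier genes 8 lay over the threshold in no sample.

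Voltage-gated channels repolarise excitable cells, and Kcnq1 also serves epithelial transport with Kcne subunits. Kcnq1 had levels of 10.95, 10.39, 11.10 and 11.39, lying 3.67 over background (SE 0.22, adjusted p = 9.86e-07), and the samples were within 1.00 log2 unit. Kcne4, an accessory subunit that inhibits Kcnq1 and several Kcna channels, had 8.97, 10.59, 10.35 and 8.81, lying 2.39 over background (SE 0.39, adjusted p = 0.000476). Of the 4 measured Kcne genes it was the 1 that passed. Kcne3, which holds Kcnq1 open in epithelia of the gut and airway, reached 7.53 in replicate 3 against 6.04 to 6.21 elsewhere, under the threshold in every sample. Kcnq5, of the same family as Kcnq1 and described in vascular muscle, had 5.59, 5.21, 7.45 and 6.30 and did not pass.

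Among Kcna genes, Kcna7 was above background, with 9.17, 7.80, 9.49 and 9.18 (distance 1.62, SE 0.30, adjusted p = 0.00115). Its channel is known from skeletal and heart muscle. Of the 12 skeletal muscle markers 3, 4, 12 and 5 lay over the threshold in replicates 1 to 4, and their part in the Kcna7 level was not tested. Replicate 2 was the low sample. Kcna5, the delayed rectifier of vascular muscle, had 4.46, 8.55, 7.41 and 4.52, with replicate 2 alone over its threshold, and did not pass. Kcna1, known from nerve fibres, had 5.92, 9.19, 7.48 and 9.66 and did not pass (adjusted p = 0.276). Without replicate 1, the low sample, Kcna1 passed (adjusted p = 0.0367), and its adjusted p ranged from 0.0367 to 1 over 11 alternatives. Kcna2 had a mean level of 6.80 ± 0.52 and did not pass.

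A few voltage-gated genes were well over the threshold in some samples and still failed the test of the mean. Kcnc2, a fast delayed rectifier known from interneurons, had 10.31, 9.89, 4.27 and 10.54. The other samples lay close together and replicate 3 far below them, and the distance from background was 1.46 with an SE of 1.02 (adjusted p = 0.216). Without replicate 3 it passed at a distance of 3.05 (adjusted p = 5.35e-06), and its adjusted p ranged from 5.35e-06 to 1 over 11 alternatives. Kcnd3, which carries a transient outward current in heart and smooth muscle, had 9.23, 10.15, 7.91 and 7.02 (distance 1.29, SE 0.56, adjusted p = 0.0619). It passed without replicate 3 (adjusted p = 0.0368) and without replicate 4 (0.0172), with a range of 0.0172 to 1 over 11 alternatives. The other probe sets of Kcnd3 had means of 7.25, 5.89 and 4.94 and were not above background.

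Kcnd2, which carries the same kind of current, had levels from 4.80 to 6.26. Its partner Kcnip1, a calcium-binding subunit, had 7.12, 7.23, 8.32 and 7.82, with 3 samples over the threshold, and did not pass (adjusted p = 0.347). Kcnip4 reached 7.09 in replicate 3 against 6.01 to 6.16 elsewhere, all under the thresholds. Kcnh2, the ERG channel known from heart, bladder and gut muscle, had 6.38, 8.14, 7.84 and 7.06, with replicates 2 and 3 over the threshold, and did not pass (adjusted p = 0.873). Kcns3, a silent subunit that modifies other channels, had levels from 4.59 to 6.99 and lay over no threshold.

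**Figure D4:**
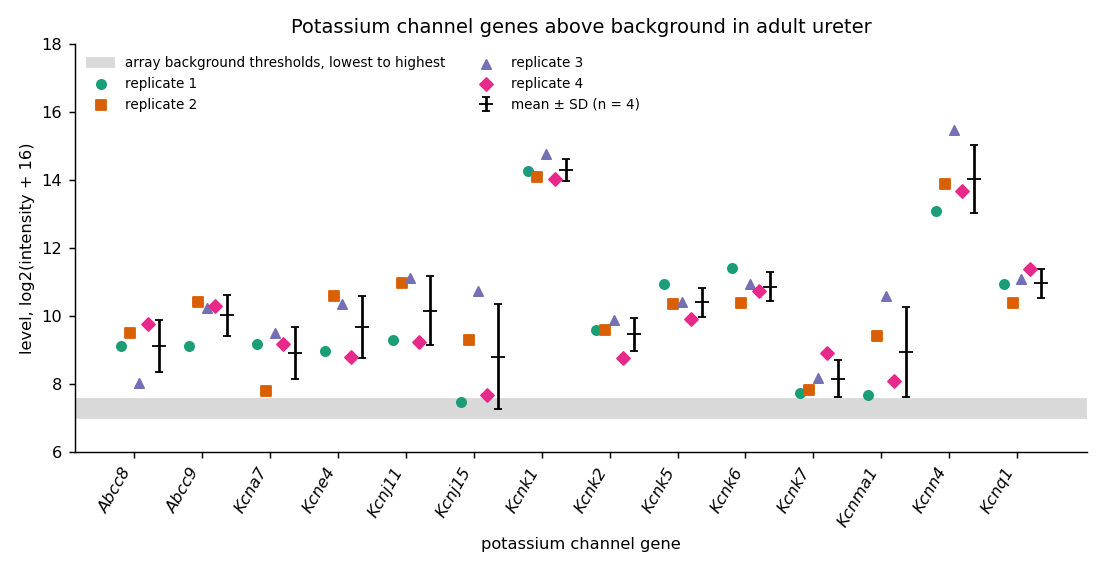
Levels of the 14 potassium channel genes above background (vertical axis, log2 scale) in replicates 1 to 4, with the mean and SD (n = 4) beside them. The grey band spans the lowest to the highest array threshold. Kcnk1 varied by 0.73 log2 units between samples and Kcnj15 by 3.27.

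In replicate 3, 13 of the 14 genes above background were over the mean of the other samples, with a median deviation of 0.60 log2 units, while all named genes above background had a median deviation of -0.05 and 47.4% were higher. In replicates 1, 2 and 4 the medians were -0.30, 0.06 and -0.40, with 5, 7 and 5 of the 14 genes higher. Those over all named genes above background lay between 0.03 and 0.05. The choice of the 14 genes itself depended on replicate 3. Without that sample Kcnc2, Kcnj8 and Kcnd3 passed the background test and Kcnj15 did not. Some of the 13 deviations in replicate 3 were close to none, such as those of Kcnk7 (0.01) and Kcnk5 (0.02). Over all 82 members, most of them at background, the median deviation in replicate 3 was 0.40, and over all named genes it was 0.08. That array had the highest threshold (7.57) and median intensity (219.9 against 126.3 to 178.9). After quantile normalization the medians of the 14 genes in replicates 1 to 4 were -0.22, 0.22, 0.43 and -0.32. The part of threshold and intensity in the deviation of replicate 3 was not tested further. With the values as deposited, the largest deviations in replicate 3 were those of Kcnj15 (2.60), Kcnma1 (2.20) and Kcnn4 (1.91). Without replicate 3 the median of replicate 1 was 0.08 and that of replicate 4 was -0.14, and without replicate 4 that of replicate 2 was 0.02. No test was made of these medians. Replicate 3 was also the sample with the skeletal muscle markers given above, with the lowest sums of fibroblast (20205) and endothelium markers (4075), and with the prostate gene Pbsn, chosen after its values were seen, at 15.41 against 8.80 to 9.42. The part of these markers in the deviation of the 14 genes was not tested.

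The spread test asked whether the 4 samples of a gene differed by more than probe sets of that level do. It was passed by 0 of the 14 genes and by 0% of all 18427 probe sets above background (limma's prior variance, Benjamini-Hochberg). Among those probe sets was that of the liver gene Alb, whose SD was 3.56. The test could thus hardly be passed, and failing it does not show that samples were alike. At an unadjusted p under 0.05 there were 2 of the 14 genes, Kcnn4 (0.0133, adjusted 0.648) and Kcnj15 (0.0317, adjusted 0.743), and 1155 of the 18427 probe sets. This count covers only genes that passed the test of the mean, which a gene of large spread such as Kcnc2 can miss. Without that filter 0 of all 82 genes passed (lowest adjusted p 0.964). The median SD of the 14 genes was 0.68 and that of all named genes above background 0.41, at median levels of 9.85 and 11.25.

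Counted sample by sample, members lay over the array threshold in 23, 37, 29 and 25 of 82 cases in replicates 1 to 4 (28.0%, 45.1%, 35.4% and 30.5%). The shares of all named genes were 66.9%, 68.5%, 67.4% and 66.0%. Replicate 2 had the most members over the threshold and also the lowest threshold. In exactly 1 sample 13 members lay over it (15.9%), beside 7.06% of all named genes.

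**Figure D5:**
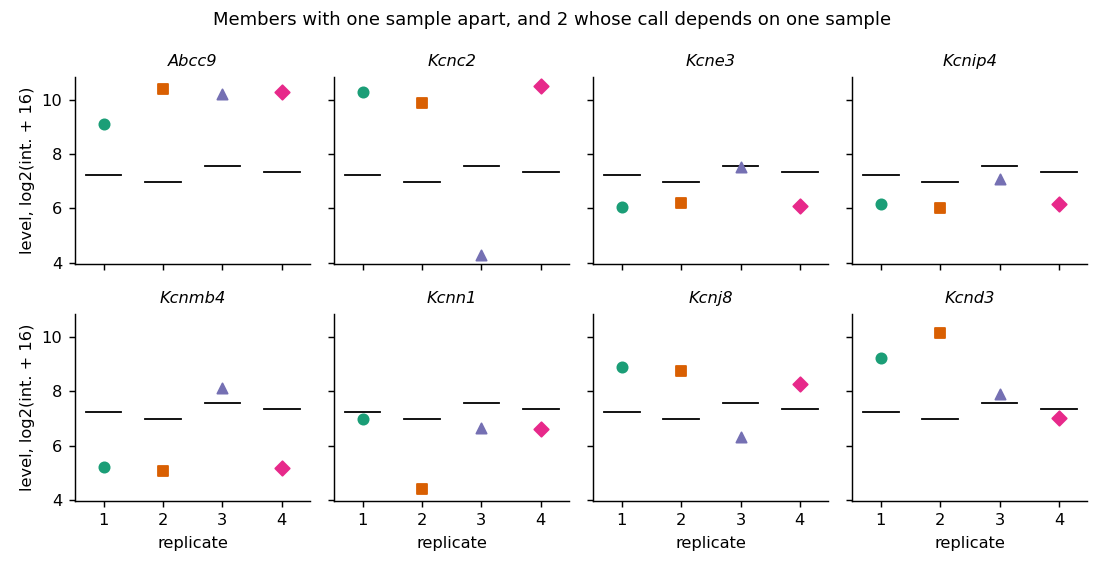
Levels of 8 potassium channel genes (vertical axis, log2 scale) in replicates 1 to 4, with each array's background threshold as a short line. In Kcnc2 and Kcnj8 replicate 3 is under the threshold and the other samples are over it, and in Kcnmb4 replicate 3 alone is over it.

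Genes that work with the channels were taken from 2 lists. Of 13 measured genes for proteins that bind or regulate channels 9 passed (69.2%), beside 57.9% of all named genes, at a median level of 11.68. They included Akap9, a scaffold that brings protein kinase A to Kcnq1, at 13.11 ± 0.32, and Prkg1, the cyclic GMP kinase that acts on BK channels in smooth muscle, at 10.83 ± 1.13. Prkg1 had 9.61, 12.27, 11.06 and 10.37, highest in replicate 2, where the 8 smooth muscle markers also had their highest summed intensity, 93872 against 29724 to 63977. The part of muscle content in this was not tested. Dpp6 and Dpp10, partners of Kcnd channels, had mean levels of 7.00 and 6.07 and did not pass.

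Of 6 measured genes that set the potassium gradient 5 passed (83.3%, beside the same 57.9%). Atp1b1, a beta subunit of the sodium pump, had 16.03, 15.91, 15.81 and 15.41, and Slc12a2, which takes up potassium with sodium and chloride, had 16.36, 16.17, 16.50 and 15.76. Both varied by under 1 log2 unit. Slc12a7, a cotransporter that lets potassium and chloride out, reached 13.35 in replicate 3 against 11.68 to 12.07 elsewhere. Atp1b2, the beta subunit of glia and neurons, did not pass at 6.88 ± 0.55.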

How the data were processed

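For 45101 probe sets the authors deposited linear-scale intensity values, 1 column per array. The submitters' processing notes name GCOS, with no version or algorithm. With 2% of probe sets trimmed at each end, all arrays had a mean of 1500, so the values were used as deposited. The 64 control probe sets were left out. Gene names came from the platform annotation, and all 82 members were found under the same symbol in the RefSeq table of GRCm38.p6. No build is named for the arrays, so coordinates are given for promoters only. The members and lists were chosen with earlier results of these data known.

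Levels, thresholds and calls are defined with the results. Tests used limma 3.58.1 in R 4.3.3, with a trended and robust prior. The background test was fitted to all probe sets that are not controls, and the spread test to those above background. Both were tried on simulated data. For the spread test the simulation gave every probe set the same SD, unlike these data, so it does not measure the power of that test here. A gene passed if any of its probe sets did. The spread test was an F test with 3 and 5.25 degrees of freedom. P-values measure only the spread between these samples, which may be technical. Named genes were all members above background, a list of smooth muscle channels, those with a sample far from the others by Dixon's criterion, and the 5 with the largest SD. The other genes given with values, examples from the partner and marker lists, were chosen after their values were seen. Alternatives covered the pseudocount (1 and 64), quantile normalization, higher thresholds, calls made with no test, which probe sets count, and leaving out each sample. The number of arrays limits precision.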

Additional observations from a re-analysis of the deposited data

Results flagged for a closer look

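In 6 of the 82 potassium channel genes (7.32%) 1 sample lay far from the other 3 by Dixon's criterion, which sets the gap to the nearest sample against the whole range. Among all named genes 6.85% met it, and chance alone gives about 1 in 20, so the share of members was near that of all genes. The sample was replicate 3 in Kcnc2 (4.27, the lowest), Kcne3 (7.53, the highest), Kcnip4 (7.09, the highest) and Kcnmb4 (8.14, the highest). It was replicate 1 in Abcc9 (9.13, the lowest, at 1 of its 3 probe sets) and replicate 2 in Kcnn1 (4.39, the lowest). Of these 6 genes Abcc9 was above background, and Kcne3, Kcnip4 and Kcnn1 were under the threshold in every sample.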

How the results depend on the processing

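Of 82 potassium channel genes, 14 were above background, 5 with the threshold 3 median absolute deviations over the receptors' median, where the prior degrees of freedom were infinite, and 26 without a test. Leaving out 1 sample gave 11 to 16, and the 11 without replicate 2 and the 11 at the 99th percentile were all among the 14. Kcnk1, Kcnk5, Kcnk6, Kcnn4 and Kcnq1 kept their call in all alternatives run for them. Without probe sets that may hybridise to more than 1 transcript 11 of 76 genes passed, and Kcnn4 and Kcnk7, which have no other kind, could not be measured. With 3 median absolute deviations the distance turned negative for Abcc8 (-0.23), Kcna7 (-0.43), Kcnj15 (-0.53), Kcnk7 (-1.18) and Kcnma1 (-0.40), and for Abcc8 without such probe sets (-1.79). The cause was not tested. Pseudocounts of 1 and 64 and quantile normalization changed none of the 35 named calls, although quantile normalization moved the median of all probe sets by 0.123, 0.212, -0.241 and -0.0272 in replicates 1 to 4. The median deviation of replicate 1 ranged from -0.16 to 0.08 when another sample was left out, that of replicate 2 from 0.02 to 0.11, that of replicate 3 from 0.52 to 0.65 and that of replicate 4 from -0.47 to -0.14. Under quantile normalization the 4 medians were -0.22, 0.22, 0.43 and -0.32, and with the values as deposited -0.30, 0.06, 0.60 and -0.40. No paired analysis was possible because all samples belong to 1 group.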

Other observations

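Of the 82 potassium channel genes, 13 lay over the array threshold in exactly 1 sample, 7 of them in replicate 2, 4 in replicate 3 and 1 each in replicates 1 and 4. Of 1285 named genes that did so, 276, 382, 435 and 192 were over it in replicates 1 to 4, and replicate 2 has the lowest threshold. Those of replicate 3, named after their values were seen, were Kcne1, a partner of Kcnq1 in heart and inner ear, at 8.84, Kcng1 and Kcng4, silent subunits, at 8.10 and 7.70, and Kcnmb4 at 8.14. Those of replicate 2 included Kcna5 at 8.55, Kcnk13 at 7.63 and Kcne2 at 7.11. None of these 13 genes was above background by the test of the mean.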
